A study of Mus musculus with 2 samples.

Results

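Slc2a1, Hk1, Hk2, Pfkm, Pfkl, Pfkp, Aldoa, Aldoc, Pgk1 and Ldha encode a glucose transporter and enzymes of glycolysis, and their signals were compared between a Sox11-null and a wild-type mouse embryo. The 10 genes were given by name, with earlier results of the same arrays known, and every probe set that the platform annotation assigns to exactly 1 of them was taken. This gave 24 probe sets, and the 10 genes are 10 of the 18193 genes that the table names. The labels give the RNA source as cortex at E17.5, late in gestation, from 1 embryo of each genotype, wild type and Sox11(-/-), of the same litter. Both embryos came from a Sox11(+/-) by Sox11(+/-) mating on a mixed C57BL/6 and 129 background, and 10 ug of RNA per embryo was labelled for an Affymetrix mouse expression array. The labels do not give the design of the Sox11 allele. With 1 array per genotype there is no spread between embryos and no gene could be tested, so each difference is one between 2 libraries. By their sex-linked genes the wild-type library reads as female and the null library as male. Genotype and sex therefore cannot be told apart here.

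Glycolysis splits glucose to pyruvate and yields ATP without oxygen. Several of its steps can be run by different enzyme genes, called isoforms, that tissues use in different proportions. Hexokinase 1, aldolase C and platelet-type phosphofructokinase are typical of brain, while hexokinase 2, aldolase A and muscle-type phosphofructokinase are typical of skeletal muscle, although aldolase A is also widely expressed. Glucose enters the brain mostly through the transporter encoded by Slc2a1, at the blood-brain barrier. Many glycolytic genes are raised together by the hypoxia-inducible factor HIF-1, which binds DNA at a short core motif.

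Promoter sequences of 3 of the genes are shown because the HIF-1 core, ACGTG or GCGTG, lies in all of them and because they cover the smallest and the largest difference found among the 10 genes. The sequences are those of RefSeq on GRCm38.p6, cover the 250 bases before an annotated start, and run 5′ to 3′ on the strand of the gene, with each match to either core on either strand in capitals.
Pgk1 promoter, chrX:106186850-106187099, plus strand: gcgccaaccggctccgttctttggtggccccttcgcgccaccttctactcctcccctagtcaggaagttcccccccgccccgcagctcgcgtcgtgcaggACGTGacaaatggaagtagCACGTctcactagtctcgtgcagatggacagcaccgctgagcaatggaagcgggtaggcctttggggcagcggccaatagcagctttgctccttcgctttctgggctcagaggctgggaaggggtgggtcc
Ldha promoter, chr7:46845554-46845803, plus strand: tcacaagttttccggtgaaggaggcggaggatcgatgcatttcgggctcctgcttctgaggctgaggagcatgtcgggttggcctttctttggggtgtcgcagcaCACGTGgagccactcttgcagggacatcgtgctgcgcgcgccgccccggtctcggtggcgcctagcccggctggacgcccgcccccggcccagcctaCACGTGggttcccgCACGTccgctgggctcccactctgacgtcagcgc
Pfkp promoter, chr13:6648772-6649021, minus strand: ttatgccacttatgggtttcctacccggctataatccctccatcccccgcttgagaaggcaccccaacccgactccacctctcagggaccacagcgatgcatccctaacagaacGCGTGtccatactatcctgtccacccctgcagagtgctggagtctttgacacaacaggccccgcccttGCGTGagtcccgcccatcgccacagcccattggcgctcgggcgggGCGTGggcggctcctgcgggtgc
The Pgk1 window holds ACGTG in each orientation, starting 150 and 131 bases before the start of the gene. In the first of the Ldha windows, CACGTG occurs at 145 and 48 bases before the start, and each occurrence counts once per strand. With a further match on the opposite strand at 34 bases, the window holds 5 matches to ACGTG. The Pfkp window holds 3 matches, all to GCGTG. All 10 genes had a promoter in the RefSeq table, with 18 windows in all because several genes have more than 1 start, and the windows of neighbouring starts can overlap. At least 1 window of each gene held a core, in 15 of the 18 windows (83.3%), against 38.6% of 32851 promoter windows of the same length. A match of letters is not a measured binding site, and the arrays hold no binding data.

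All 10 genes lay within 1.5-fold of wild type when each was represented by its brightest probe set. Their log2 differences, Sox11 null minus wild type, ran from -0.037 for Aldoa to 0.35 for Pfkp. The median was 0.14, and the median of all 12390 measured genes is 0 by centring. Measured means that the signal reached the array's median over probe sets (177.5 on the wild-type array and 177.4 on the null array) on at least 1 array, and all 10 genes passed on both arrays. None of the 10 was beyond 1.5-fold, where 6.3% of measured genes were (3.07% higher and 3.24% lower), and since the choice of the genes used this comparison nothing is read from this. Of the 10 differences 8 were positive. The negative values, those of Aldoa and Ldha, turned positive with quantile normalization (0.043 and 0.078) and with a loess trend on level removed (0.061 and 0.087).

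**Figure D1:**
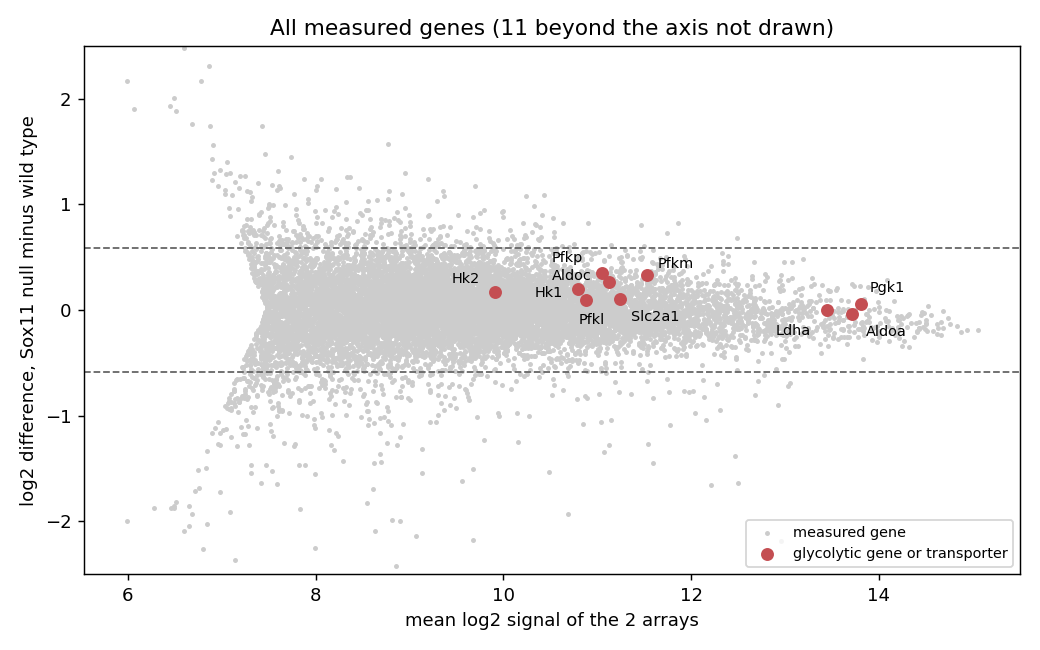
Log2 difference (Sox11 null minus wild type) against the mean log2 signal of both arrays, for the 12390 measured genes in grey and the 10 glycolytic and transporter genes in red, with dashed lines at 1.5-fold. The 10 red points lie between -0.037 and 0.35, and 11 grey genes fall beyond the drawn axis.

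As a technical yardstick, probe sets of the same gene differed from each other with a pooled SD of 0.39 on the log2 scale, over 5155 genes with several measured probe sets. None of the 10 differences was as large as this SD. For 9 of the 10 genes, the central 95% of measured genes in the highest of 3 equal level groups ran from -0.46 to 0.45. For Hk2, in the middle group, it ran from -0.49 to 0.57. Every one of the 10 genes lay inside its range. Pfkp had the largest difference, and 2481 of the measured genes differed by at least as much. The corresponding number was 2729 for Pfkm, 3759 for Aldoc and 12380 for Ldha.

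Probe sets showed more than the single value per gene. Of the 24 probe sets, 22 were measured. Among these, 2 were beyond 1.5-fold higher in the null library, 1 of Pfkp and 1 of Hk1, and none was lower. Over all 20669 measured single-gene probe sets, 7.26% were 1.5-fold higher and 3.48% lower. Of the 22 differences, 16 were positive and 6 negative, with a median of 0.13 beside 0.027 over all measured probe sets. Signals of different probe sets are not amounts of RNA on one scale, because probes differ in how well they bind. An isoform with a brighter probe set is therefore not shown to be the more abundant one.

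**Figure D2:**
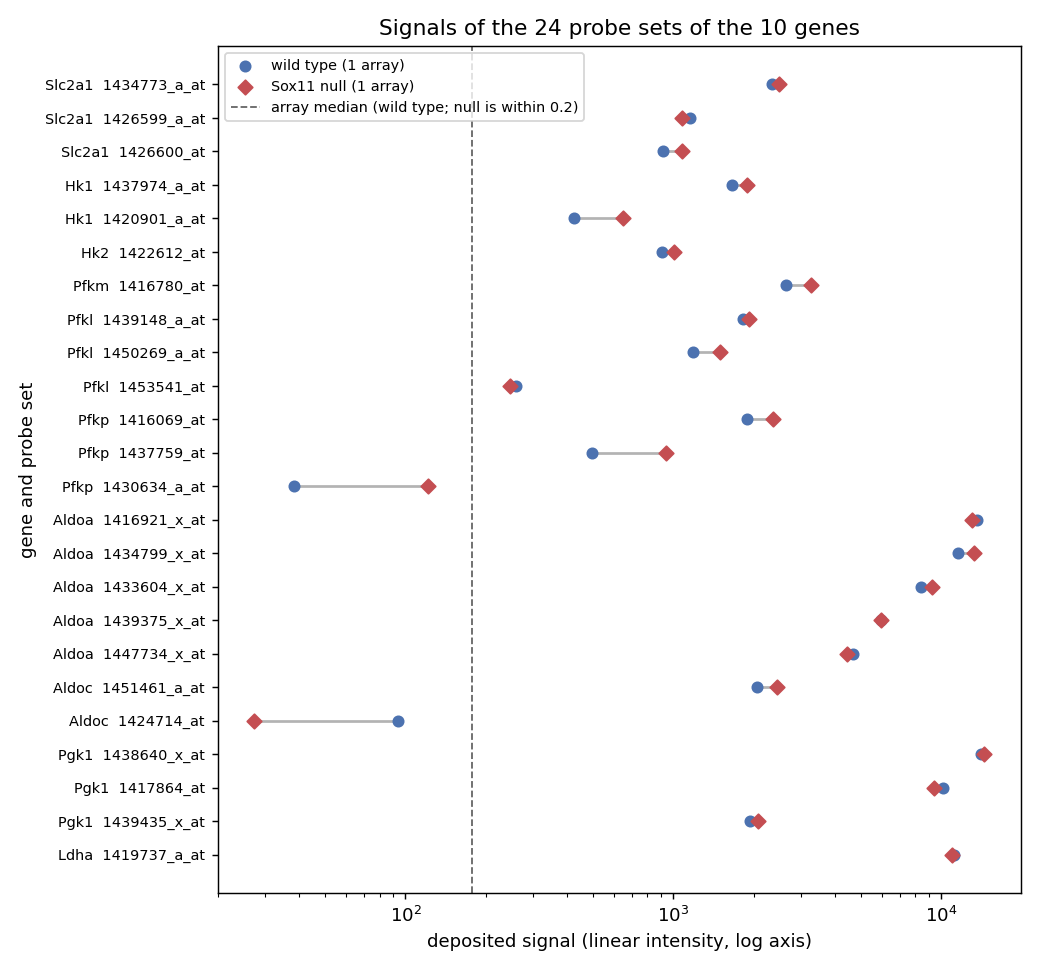
Deposited signal on a log axis for each of the 24 probe sets, with the wild-type array as a circle, the Sox11-null array as a diamond and the wild-type array median as a dashed line. Most pairs nearly coincide, and the widest gaps belong to the dim probe sets of Pfkp and Aldoc left of the median.

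The glucose transporter gene Slc2a1 differed by less than 1.5-fold with each of its 3 probe sets. The brightest, 1434773_a_at, gave 2342 on the wild-type array and 2477 on the null array (log2 difference 0.10). With 1426599_a_at the signals were 1151 and 1080 (-0.072), and with 1426600_at they were 918 and 1078 (0.25). The direction was therefore not shared by the 3 probe sets. Slc2a1 is strongly expressed by brain capillary endothelium. Of 6 endothelial marker genes 3 were beyond 1.5-fold higher in the null library, where 3.07% of all measured genes were. The 6 had a median of 0.58 and a summed signal of 3606 on the wild-type array and 4261 on the null array. Cldn5, a tight junction gene of brain capillary endothelium, was at 1547 and 1274 (-0.26). The marker Flt1 gave 0.16 with its brightest probe set, and -0.38 and 0.35 with its 2 other measured ones. The part of endothelial RNA in the Slc2a1 values was not tested. In whole tissue RNA, fewer cells of a type and less RNA per cell cannot be told apart.

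Hexokinase phosphorylates glucose and so traps it in the cell. Hk1, the brain-type hexokinase, was at 1660 on the wild-type array and 1875 on the null array with its brighter probe set, 1437974_a_at (0.20). Its dimmer probe set, 1420901_a_at, was at 424 and 646, which is 1.55-fold higher in the null library (0.63). Both were higher in the null library, but they differed from each other by more than the yardstick SD. A gap between 2 probe sets varies more than that SD, so this gap is not shown to be unusual. A further probe set lists Hk1 together with Rpl17 and related sequences and was left out, since it names several genes. Hk2, the muscle-type form, had 1 probe set, 1422612_at, at 905 and 1005 (0.17). The Hk1 difference exceeded that of Hk2 by 0.025 with the brighter and by 0.46 with the dimmer Hk1 probe set. The gap between brain-type and muscle-type hexokinase thus depended on the Hk1 probe set.

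Phosphofructokinase catalyses the committed step of glycolysis and is built from subunits of 3 genes. Pfkm, the muscle-type subunit, had 1 probe set, 1416780_at, at 2637 on the wild-type array and 3269 on the null array (0.33). Pfkl, the liver-type subunit, was at 1825 and 1917 with 1439148_a_at (0.091), at 1183 and 1487 with 1450269_a_at (0.35), and at 258 and 245 with 1453541_at (-0.059). Only the middle one of these resembled the Pfkm difference. Pfkp, the platelet-type subunit that is also made in brain, was at 1878 and 2360 with 1416069_at (0.35).

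The other probe sets of Pfkp gave larger values. With 1437759_at the signals were 499 on the wild-type array and 937 on the null array, a 1.91-fold difference (0.93). With 1430634_a_at they were 38.4 and 121.8, both below the array medians and the wild-type value below the floor of 52.9, the 25th percentile of the array, to which lower values were raised. Against that floor this probe set was at least 2.33-fold higher. All 3 Pfkp probe sets had the same direction, and their size grew as the signal fell. Averaged over its measured probe sets, Pfkp was at 0.64 with the main centring. With the centring redone on gene averages it was at 0.60, and was then the only gene of the 10 beyond 1.5-fold. In that setting 830 of all 12397 measured genes were beyond 1.5-fold. The average over all 3 Pfkp probe sets, centred in the same way, was 0.80.

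Within the family, Pfkp exceeded Pfkm by 0.020 with the brightest probe sets and by 0.60 with 1437759_at. Pfkl fell short of Pfkm, with a difference between them of -0.24, and over the 3 Pfkl probe sets this ran from -0.39 to 0.019. The order of the 3 subunit genes by difference therefore depended on the probe set, and the gaps between the brightest ones were below the yardstick SD.

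**Figure D3:**
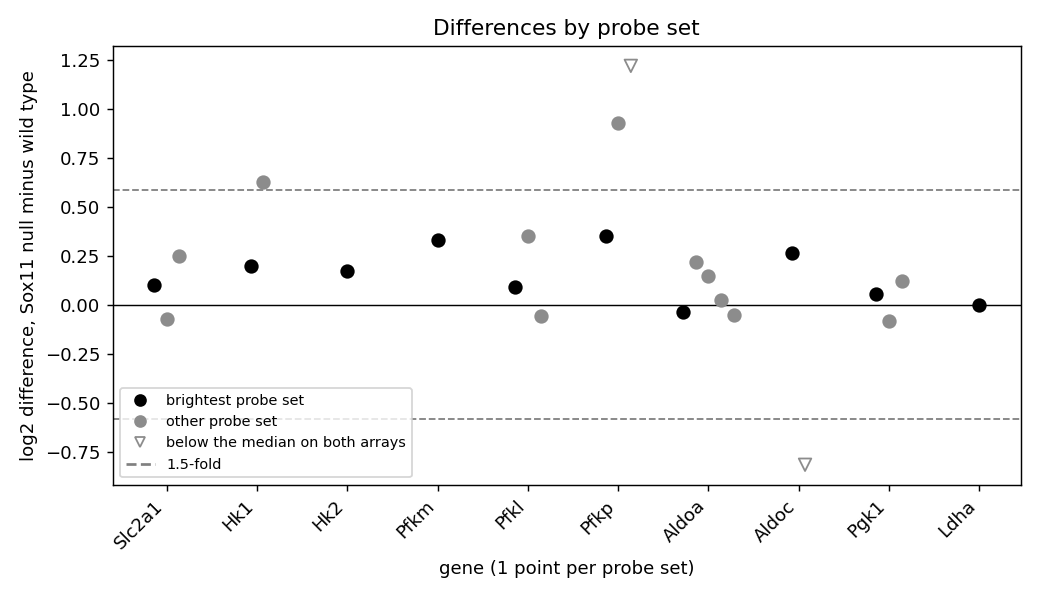
Log2 difference (Sox11 null minus wild type) of each probe set by gene, with the brightest probe set in black, other probe sets in grey, and open triangles for probe sets below the median on both arrays; dashed lines mark 1.5-fold. The brightest probe sets lie between -0.037 and 0.35, and the points outside the dashed lines are dimmer probe sets of Hk1, Pfkp and Aldoc.

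Aldolase cleaves fructose bisphosphate into a pair of triose phosphates. Aldoa, the muscle-type and widely expressed form, was bright with all 5 of its probe sets, each of the _x_at type, whose probes can also bind other transcripts. The brightest, 1416921_x_at, was at 13591 on the wild-type array and 13062 on the null array (-0.037). The next, 1434799_x_at, was at 11541 and 13243 (0.22), and 1433604_x_at was at 8433 and 9209 (0.15). The last of the 5 were 1439375_x_at at 5933 and 5956 (0.025) and 1447734_x_at at 4683 and 4454 (-0.052). The mean over the 5 was 0.060 ± 0.12 (SD, 5 probe sets that read the same RNA), so their spread was larger than their mean.

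Aldoc, the brain-type aldolase, was at 2045 on the wild-type array and 2427 on the null array with 1451461_a_at (0.27). Its other probe set, 1424714_at, was below the median on both arrays, at 93.9 and 27.2, and lay at the floor in the null library, where it was at least 1.76-fold lower. The direction of Aldoc thus differed between a well-detected and a dim probe set. With the measured probe set, the Aldoc difference exceeded that of Aldoa by 0.30, and against each of the 5 Aldoa probe sets the gap was positive, from 0.049 to 0.32. All of these gaps were below the yardstick SD of 0.39, and they share 1 Aldoc value. With all probe sets of each gene averaged the gap reversed, to -0.34.

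Phosphoglycerate kinase makes the first ATP of the pathway, and Pgk1 is its general form. Its brightest probe set, 1438640_x_at, was at 14102 on the wild-type array and 14441 on the null array (0.054). With 1417864_at it was at 10119 and 9418 (-0.084), and with 1439435_x_at at 1928 and 2066 (0.12). The values lay on both sides of 0, with a mean of 0.030 ± 0.10 (SD over 3 probe sets). Pgk1 lies on chromosome X. The libraries differed in their sex-linked genes, with Xist, the RNA of the inactive X, at 17505 and 155, and the Y-linked gene Uty at 21.8 and 617. The other 405 measured X-linked genes had a median difference of -0.00077, and 5.68% of them were beyond 1.5-fold. Xist and Uty read as a female wild-type embryo and a male null embryo. Sex thus differs together with genotype, and their parts in any difference cannot be told apart.

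Lactate dehydrogenase converts pyruvate to lactate. Ldha, its muscle-type subunit, had 1 probe set, 1419737_a_at, at 11151 on the wild-type array and 10997 on the null array, the smallest difference of the 10 genes (-0.00018). Ldhb, the subunit typical of heart and brain, was at 2884 and 2651 (-0.10), and its 3 other measured probe sets gave -0.14 to -0.059. Neither subunit came near 1.5-fold.

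Among the other genes of the pathway, 1 measured gene was beyond 1.5-fold with its brightest probe set. Of 43 listed genes 36 had a single-gene probe set and 30 were measured. Of these 29 were within 1.5-fold, 1 was higher and none was lower, with a median of 0.059. Over all measured genes 3.07% were higher and 3.24% lower. The list was chosen with earlier results of these data known, so nothing is read from this count or from those of its parts below. The gene beyond 1.5-fold was Pygm, the muscle-type glycogen phosphorylase, which releases glucose units from glycogen. It was at 998 on the wild-type array and 1833 on the null array (0.90, 1.86-fold higher), with 1 probe set. Its brain-type counterpart Pygb was at 1000 and 1263 (0.36), and the liver-type Pygl was at 669 and 687 (0.059).

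Among the other 15 glycolytic enzyme genes 9 were measured, all within 1.5-fold, and 5 were positive. Eno2, the neuronal enolase, came closest to 1.5-fold, with 921 and 1354 (0.58), and the muscle enolase Eno3 was at 7922 and 10907 (0.48). Both enolase isoforms were thus higher by a like amount. The pyruvate kinase gene Pkm, which both brain and muscle use, was at 4400 and 5990 (0.47). Of the phosphoglycerate mutases, the general form Pgam1 was at 6363 and 6540 (0.059) and the muscle form Pgam2 at 3685 and 4318 (0.25). Brain-type or general forms were set against the muscle form by brightest probe sets. Pygb against Pygm had a gap above the yardstick SD (-0.54), and those of the other steps were below it. Because a gap between 2 probe sets varies more than that SD, the Pygb gap is not shown to be unusual. Gapdh is read here only by its control probe sets, at 17622 and 16995 for the 3' set (-0.032), at 15335 and 18054 for the middle set (0.26) and at 19117 and 20822 for the 5' set (0.14).

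**Figure D4:**
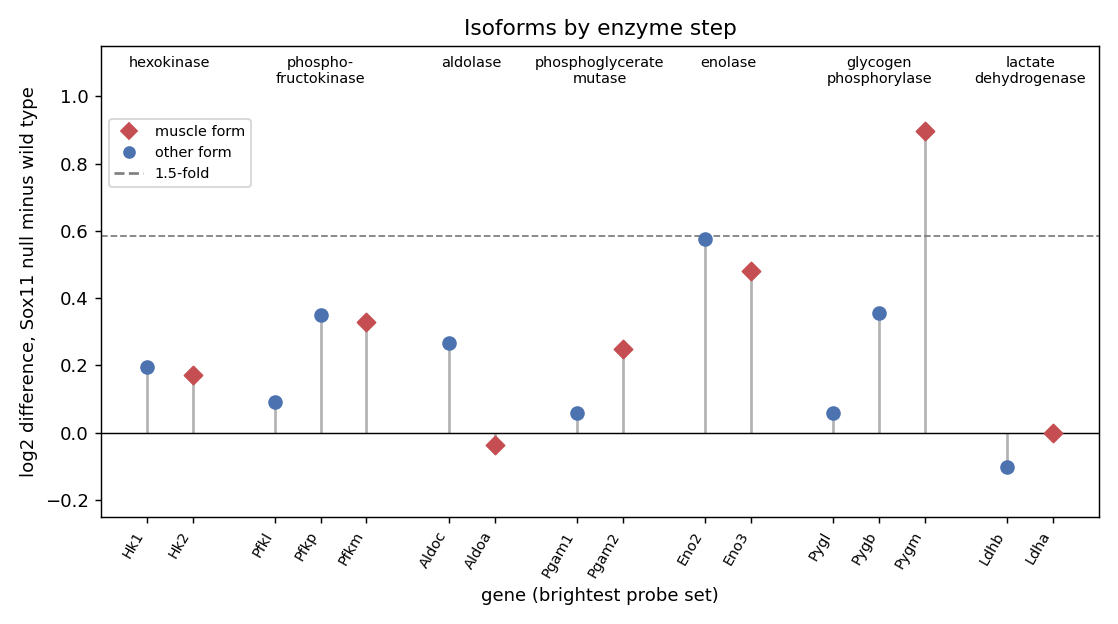
Log2 difference (Sox11 null minus wild type) of the brightest probe set of each isoform, grouped by enzyme step, with muscle forms as red diamonds, other forms as blue circles and a dashed line at 1.5-fold. Pygm at 0.90 is the one point above the dashed line, and most gaps between forms of 1 step are below the yardstick SD of 0.39.

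None of the measured transporters and regulators of the pathway was beyond 1.5-fold with its brightest probe set. The neuronal glucose transporter gene Slc2a3 was at 1539 on the wild-type array and 1665 on the null array (0.13). Slc2a4, the insulin-responsive transporter of muscle and fat, was at 513 and 492 (-0.041). Each had 1 other measured probe set of the opposite sign, at -0.024 for Slc2a3 and 0.16 for Slc2a4. Of 9 listed transporters besides Slc2a1, 5 were measured. Of the 5 genes of lactate and pyruvate transport 3 were measured, with differences from -0.20 to 0.44. Slc16a7, a lactate and pyruvate transporter gene below the median on both arrays, was at 149 and 89.6 (-0.72). All 10 regulators with a probe set were measured. They ran from -0.40 for Tigar, which lowers glycolytic flux, to 0.49 for Pdk2, a kinase that inhibits pyruvate dehydrogenase. Hif1a, the oxygen-regulated subunit of HIF-1, was at 4931 and 4178 (-0.22) with its brightest probe set, but its 2 other measured probe sets gave -0.085 and 2.08.

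Both libraries held high signals of skeletal muscle genes although the labels name cortex. All 12 muscle markers were measured, with signals from 1191 to 23182 in wild type and 1334 to 23519 in the null library. None was beyond 1.5-fold, where 6.3% of all measured genes were. The 12 differences ran from -0.11 to 0.58, with a median of 0.10, and 8 were positive and 4 negative. The summed signals, to which the brightest genes contribute most, were 161524 and 163082. Of 12 cortical neuron markers 11 had a probe set and 10 were measured, with sums of 42448 and 39595. All 10 were within 1.5-fold with their brightest probe set. Other measured probe sets went beyond it in both directions, with Neurod2 at -0.85, Syt1 down to -0.87, Dcx up to 0.96 and Bcl11b up to 0.59. Slc17a7, a glutamate transporter of cortical neurons, was below the median on both arrays. The 6 markers of astrocytes and radial glia summed to 28977 and 25681. The brightest, Fabp7 (14647 and 12514) and Gja1 (11479 and 10133), were lower in the null library with their brightest probe sets. However, the 5 other measured probe sets of Gja1 ran from -0.054 to 1.85, with a mean of 0.68. By brightest probe set the 5 measured markers had a median of -0.11, with 2 positive and 3 negative, and Gfap was below the median on both arrays. Other measured probe sets averaged 0.49 for Slc1a3 and gave 0.61 for Aqp4. Of the erythroid list 4 of 6 had a probe set. Alas2, an enzyme of haem synthesis, was at 979 and 1352 (0.49). The anion exchanger gene Slc4a1 was at 361 and 309 (-0.20) with its brightest probe set, but its other measured probe set gave 0.64. The globin genes Hba-a1 (87.1 and 17.1) and Hbb-y (57.4 and 26.6) were below the median on both arrays. How much of each glycolytic signal came from muscle, from cortex or from any other tissue was not tested.

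Sox11 was lower in the null library with all 6 of its probe sets, and 16.4% to 47.8% of the wild-type signal remained. For the beta-actin control, the 3' probe set was 1.78 times the 5' one on the wild-type array and 1.16 times on the null array, and its 5' probe set alone differed by 0.50 between the libraries. Where the Pfkp and Hk1 probe sets lie along their transcripts was not analysed here, and the part of this ratio in their larger differences was not tested.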

How the data were processed

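The values deposited by the authors are linear signal intensities, 1 for each probe set on each array. The submitters' processing notes name Affymetrix Expression Console; which summary algorithm it ran is not stated there. The column medians were 177.5 and 177.4, and the mean after trimming 2% at each end was 500.002 on both arrays, as 1 scaling factor per array would give. No detection call was used. Precision is limited by having 1 array per genotype.

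Of 45101 probe sets, 64 controls were left out, and 34945 name 1 gene, 932 several and 9160 none here. Symbols of 34741 were updated by gene number through RefSeq (GRCm38.p6). The brightest probe set by mean log2 signal represented a gene. The null array was shifted by 0.020 on the log2 scale to a median difference of 0 over measured genes, and values under the 25th percentile (52.9 and 52.5) were raised to it. Fold sizes were counted at 1.5-fold, with Python 3.11.15, pandas 2.3.3 and statsmodels 0.14.6 for the loess trend (span 0.3). The steps were tested on simulated data. Signals are printed as deposited and differences after the shift.

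The genes, lists and the rule for named genes (every probe set of the 10 genes, pathway genes beyond 1.5-fold, and isoforms that pair with a brain or muscle form) were chosen with earlier results of these data known. Other named genes (Tigar, Pdk2, Hif1a, Slc16a7, Cldn5, Flt1, Slc17a7, Neurod2, Syt1, Dcx, Bcl11b, Gfap, Fabp7, Gja1, Slc1a3, Aqp4 and the erythroid genes) were chosen from the fixed lists after their values were seen. No gene was named for a like pattern, since 2 arrays give 1 difference per gene.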

Additional observations from a re-analysis of the deposited data

How the results depend on the processing

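The differences of the 10 genes, the 4 contrasts of Aldoc, Pfkp, Pfkl and Hk1 with their muscle forms, the medians of the 10 and of the other pathway genes, and the counts beyond 1.5-fold were recomputed under 9 alternatives (no centring, quantile normalization, a loess trend removed, no floor, a floor at the median, a filter at the 75th percentile or none, all probe sets averaged, and no _s_at or _x_at types) and under 1 more, the mean over measured probe sets, chosen after seeing the data. A value counted as moved when it changed by more than the yardstick SD, or a count by more than 1.5 times. With all probe sets averaged, the Aldoc difference minus that of Aldoa was -0.34 and the Pfkp difference minus that of Pfkm 0.50, against 0.21 and 0.31 over measured probe sets alone. Under either mean 1 of the 10 genes, Pfkp, was beyond 1.5-fold. Over all measured genes the counts were 627 of 10429 with all probe sets averaged and 830 of 12397 over measured probe sets. The count over all genes went from 781 to 1518 with no filter and 273 with the filter at the 75th percentile. The count of other pathway genes was 2 with no filter (Pygm higher and Slc16a7 lower) and 2 with the mean over measured probe sets (Pygm higher and Pklr lower). Pklr rests there on 1 measured probe set (-0.74), while its brightest, below the median on both arrays, gave 0.21. The median of the 10 genes ran from 0.074 to 0.16 over all alternatives. Without the _s_at and _x_at types Aldoa had no probe set and gave no value. No paired analysis was possible because each genotype has 1 array.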
